A study of Mus musculus with 2 samples.

Results

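The genes Mir148a, Mir148b and Mir152 of the mir-148 seed family, and Mir130a, Mir130b, Mir301 and Mir301b of the mir-130 seed family, were described by small RNA sequencing of newborn mouse calf muscle. They were taken by symbol from the GENCODE M21 annotation, and all 7 were among the 2202 genes listed in the count tables, of which 1462 had 0 counts in both libraries. The RNA came from the gastrocnemius of female mice of strain B6CASTF1/J at an age of 4 days, a cross of laboratory strain C57BL/6J with the wild-derived strain CAST/EiJ. The single group held 2 libraries. The labels call the libraries biological replicates and number the females separately, but list the same donor record for both. Whether the spread between the libraries is technical in part is therefore not known. RNA under 30 bases was sequenced. No treatment, mutation or second age was included, so values were compared between genes and between the libraries.

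MicroRNAs are short RNAs that guide the Argonaute protein to messenger RNAs and lower their stability and translation. Target choice rests mainly on the seed, bases 2 to 8 counted from the 5′ end, so genes with a common seed can act on overlapping targets. The mir-148 family is known for repressing the maintenance DNA methyltransferase gene Dnmt1, and miR-148a has been reported to promote the differentiation of mouse myoblasts. The mir-130 family is known for repressing Pparg, the master regulator of fat cell formation. In human endothelial cells miR-130a has been reported to lower antiangiogenic homeobox genes.

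The mature 3p arms are shown because their seeds, in capitals, define the families. RefSeq sequences of build GRCm38.p6 matched 6 of the 7 genes for this arm, and miR-301b-3p is named only.
miR-148a-3p: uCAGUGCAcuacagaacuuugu
miR-148b-3p: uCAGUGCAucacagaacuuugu
miR-152-3p: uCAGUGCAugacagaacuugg
miR-130a-3p: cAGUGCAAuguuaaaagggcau
miR-130b-3p: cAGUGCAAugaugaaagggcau
miR-301a-3p: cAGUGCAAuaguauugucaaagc

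The families used the same 7 bases in shifted positions. The run CAGUGCA lay at bases 2 to 8 in the mir-148 sequences and at bases 1 to 7 in the mir-130 sequences, and it was present in all 6 printed arms. Within the mir-148 family, differences began just after the seed. Counting from 1 at the 5′ end, miR-148a-3p differed from miR-148b-3p by C9U and U10C, and from miR-152-3p by C9U, U10G and U20G. In the other family, miR-130a-3p and miR-130b-3p were identical at 20 of 22 positions and differed by U11A and A13G. miR-301a-3p shared only 12 of 22 positions with miR-130a-3p, although their first 9 bases were the same.

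Deposited counts were per gene, so reads of both arms were pooled. The annotated hairpin of Mir130a shows what a gene count covers. It lies on the minus strand at chr2:84741115-84741178 in mm10, with the 3p arm in capitals.
Mir130a hairpin: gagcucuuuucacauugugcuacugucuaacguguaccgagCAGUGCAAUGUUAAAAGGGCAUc
Which arm gave the reads was not analysed here. The longest stretch that any of the 7 hairpins shared with another counted gene was 17 bases, between Mir130a and Mir6389. The genes most alike among themselves were Mir301 and Mir301b, with 16 shared bases, and Mir148a and Mir148b, with 15. Matches elsewhere in the genome, and matches that allow differing bases, were not searched. The split of reads between genes with nearly identical mature arms, such as miR-130a-3p and miR-130b-3p, is therefore uncertain.

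The 7 genes occupied 6 loci. Mir148a (chr6:51269812-51269910, minus strand) lay between genes, with the nearest coding gene, Nfe2l3, 162759 bases away. Mir130a also overlapped no other annotated gene, and the nearest coding gene, Gm19426, lay 990 bases away. Mir148b (chr15:103285125-103285221, plus strand) lay in an intron of Copz1, and Mir152 (chr11:96850393-96850465, plus strand) lay in an intron of Copz2. Those hosts are paralogs that encode zeta subunits of the COPI vesicle coat. Mir152 lay 523 bases and Mir148b 12411 bases from the annotated start of its host. Mir301 (chr11:87113004-87113089, plus strand) lay in an intron of Ska2, which encodes a kinetochore protein. Mir130b (chr16:17124061-17124142) and Mir301b (chr16:17124400-17124496) lay on the minus strand in an intron of 2610318N02Rik, with 257 bases between them. No other counted gene lay within 10 kb of any of the 7.

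Library 1 held 10426665 reads and library 2 held 8487769, of which 5569392 and 4336759 were assigned to a gene on its own strand. Levels are a gene's counts per 1000000 of these gene counts (CPM). Of the skeletal muscle markers, Mir206 was the most abundant detected gene, at 129336 CPM in library 1 and 119323 CPM in library 2. Among genes of all kinds, 335 of 2202 (15.2%) were detected, which means 2 CPM or more in both libraries. All 7 genes of the families were detected, and the median level of detected genes was 123 CPM. The muscle markers Mir1a-1, Mir1a-2, Mir133a-1, Mir133a-2, Mir133b and Mir486 had mean levels below that median, between 0.41 CPM for Mir133a-2 and 87.3 CPM for Mir486. Copies that share a mature sequence, such as those of Mir1a and Mir133a, can lose reads to the multimapping line, so their levels are uncertain.

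Mir130a dominated the 7 genes. It had 29320 counts in library 1 and 19410 in library 2, or 5264 and 4476 CPM. Its mean was 4870.1 ± 558 CPM (SD, n = 2), rank 38 of the 335 detected genes. In bulk tissue, fewer cells of a type and less RNA per cell cannot be told apart.

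The cluster mate pair stood far lower. Mir130b, with the seed of Mir130a, had 1429 counts in library 1 and 946 in library 2, or 257 and 218 CPM, with a mean of 237 ± 27.2 CPM (SD, n = 2). Its neighbour Mir301b had 53 and 21 counts, or 9.52 CPM (exact 95% Poisson interval 7.13 to 12.4) in library 1 and 4.84 CPM (3.00 to 7.40) in library 2, a mean of 7.18 ± 3.3 CPM. By assigned reads, Mir301b was therefore the scarcest of the 7 in both libraries and ranked 281 among the detected genes. Mir301, the source of miR-301a, had 902 counts in library 1 and 473 in library 2, or 162 and 109 CPM, with a mean of 136 ± 37.4 CPM (SD, n = 2).

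In the mir-148 family, Mir148a and Mir152 were at like levels. Mir148a had 3254 counts in library 1 and 1798 in library 2, or 584 and 415 CPM, with a mean of 499 ± 120.0 CPM (SD, n = 2). Mir152 had 2837 and 1821 counts, or 509 and 419.9 CPM, with a mean of 465 ± 63.3 CPM. Mir148a was higher than Mir152 in library 1 and lower in library 2, so the data give no order between them. Mir148b had 675 and 472 counts, or 121 and 109 CPM, with a mean of 115 ± 8.74 CPM.

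**Figure D1:**
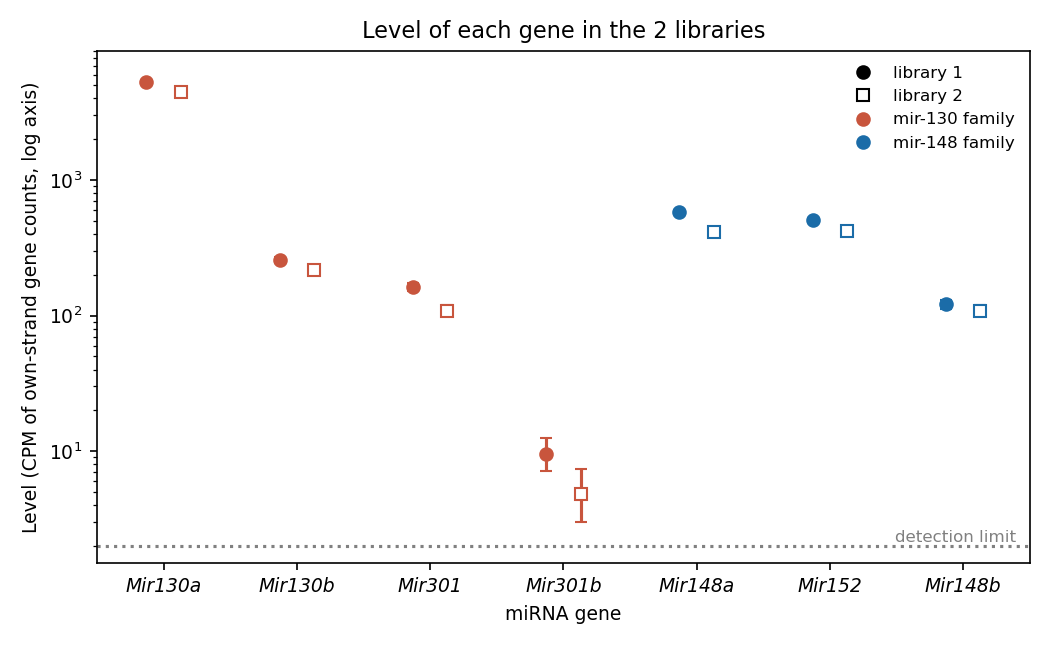
Level of each gene in CPM on a log axis, in library 1 (filled circles) and library 2 (open squares), with exact 95% Poisson intervals where they are larger than the symbol. Mir130a at 5264 and 4476 CPM stands above the other genes, and Mir301b at 9.52 and 4.84 CPM lies just above the dotted detection limit of 2 CPM.

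By mean level the order was Mir130a, Mir148a, Mir152, Mir130b, Mir301, Mir148b and Mir301b. Mir130a exceeded the next gene 9.75-fold, and Mir148b exceeded Mir301b 16.02-fold. The ranges over the libraries overlapped for Mir148a and Mir152, and for Mir301 and Mir148b, so the spread does not separate these neighbours. The other 4 steps in the order had ranges that did not overlap.

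As families, mir-130 was the more abundant. Its 4 genes summed to 5693 (library 1) and 4808 CPM (library 2), a mean of 5250.1 ± 626 CPM (SD, n = 2). The 3 genes of mir-148 summed to 1215 and 943 CPM, a mean of 1079 ± 192 CPM. The ratio of mir-130 to mir-148 was 4.69 in library 1 and 5.10 in library 2. Together the 7 genes held 0.691% of gene counts in library 1 and 0.575% in library 2.

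The make-up of the families differed. Mir130a supplied 92.5% of mir-130 counts in library 1 (exact 95% binomial interval 92.2 to 92.8) and 93.1% in library 2 (92.7 to 93.4). Mir130b followed with 4.51% and 4.54%, Mir301 held 2.85% and 2.27%, and Mir301b supplied 0.167% and 0.101%. No single gene led mir-148. Mir148a held 48.1% of its counts in library 1 (46.9 to 49.3) and 44.0% in library 2 (42.4 to 45.5), against 41.9% (40.8 to 43.1) and 44.5% (43.0 to 46.1) for Mir152. Mir148b held 9.98% in library 1 (9.27 to 10.7) and 11.5% in library 2 (10.6 to 12.6). These intervals cover counting error only.

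**Figure D2:**
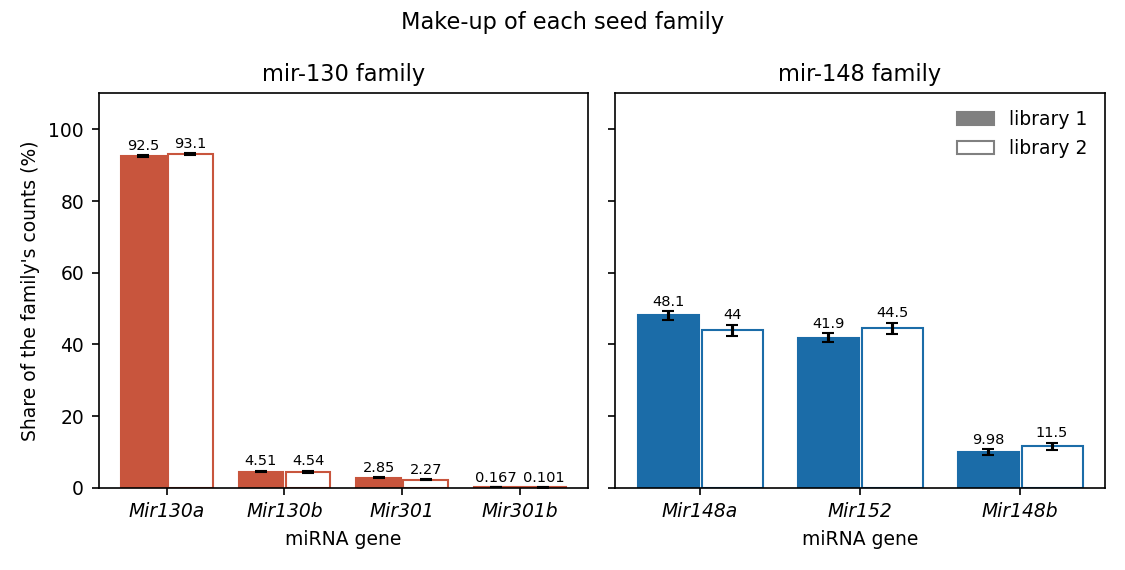
Share of each family's counts, in percent, held by each gene in library 1 (filled bars) and library 2 (open bars), with exact 95% binomial intervals as error bars. One gene, Mir130a, makes up 92.5% and 93.1% of mir-130, whereas Mir148a and Mir152 hold similar shares of mir-148.

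Sharing a locus did not go with equal counts. In the locus on chromosome 16, Mir130b exceeded Mir301b 27.0-fold in library 1 and 45.0-fold in library 2. Mir301b was 3.58% of the 1482 reads of the pair in library 1 (exact 95% binomial interval 2.69 to 4.65) and 2.17% of the 967 reads in library 2 (1.35 to 3.30). These intervals overlap, and the difference in the split was not tested. Reads that Mir301b may have lost to the similar gene Mir301 were not measured. Mir130a and Mir130b, on different chromosomes, had a ratio of 20.5 in both libraries, with intervals of 19.5 to 21.7 in library 1 and 19.2 to 21.9 in library 2. The split of reads between their nearly identical mature arms is uncertain, and its part in the equal ratios was not tested. In the COPI introns, Mir152 exceeded Mir148b 4.20-fold in library 1 and 3.86-fold in library 2.

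All 7 genes were higher in library 1 than in library 2. Between the libraries, an exact two-sided binomial test of counts, given library totals scaled by TMM (trimmed mean of M values), was applied to the 335 detected genes with Benjamini-Hochberg adjustment and a threshold of 0.05. It called 55.5% of all detected genes, 26.9% as higher in library 1 and 28.7% as lower in library 1. Of the 7 genes, 6 were called higher in library 1 and 0 lower. With TMM factors taken over all gene rows, a setting chosen after the data were seen, 117 detected genes were called higher and 74 lower, in place of 90 and 96. The median log2 ratio, library 1 over library 2, was 0.30 over the 7 genes and -0.03 over the detected genes, of which 46.6% had a ratio above 0. The test compares these libraries and covers counting error only, because 1 library on each side gives no spread between animals.

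The differences were mostly small. Mir148a was 1.43-fold higher in library 1, a log2 ratio of 0.52 (0.43 to 0.60 at 95%, from counting error), and Mir301 was 1.51-fold higher, at 0.59 (0.43 to 0.76). Mir152 was higher by a log2 ratio of 0.30 (0.22 to 0.39). Mir130a and Mir130b, between which the split of reads is uncertain, had the same log2 ratio of 0.26. The intervals were 0.23 to 0.28 for Mir130a and 0.14 to 0.38 for Mir130b. Mir301b had the highest log2 ratio of all 335 detected genes, 1.00 (0.24 to 1.80), from 53 and 21 counts, with an adjusted p of 0.0138 by the exact binomial test. Its wide interval includes the ratios of the other 5 called genes, whose adjusted p was at most 5.53e-05 by the same exact test. Mir148b was not called, at a log2 ratio of 0.18 (0.01 to 0.35) and an adjusted p of 0.0688 by the exact binomial test. Over the 6 other settings of scaling, strand and filter, that p of the exact binomial test ranged between 0.00882 and 0.137, on either side of the threshold.

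**Figure D3:**
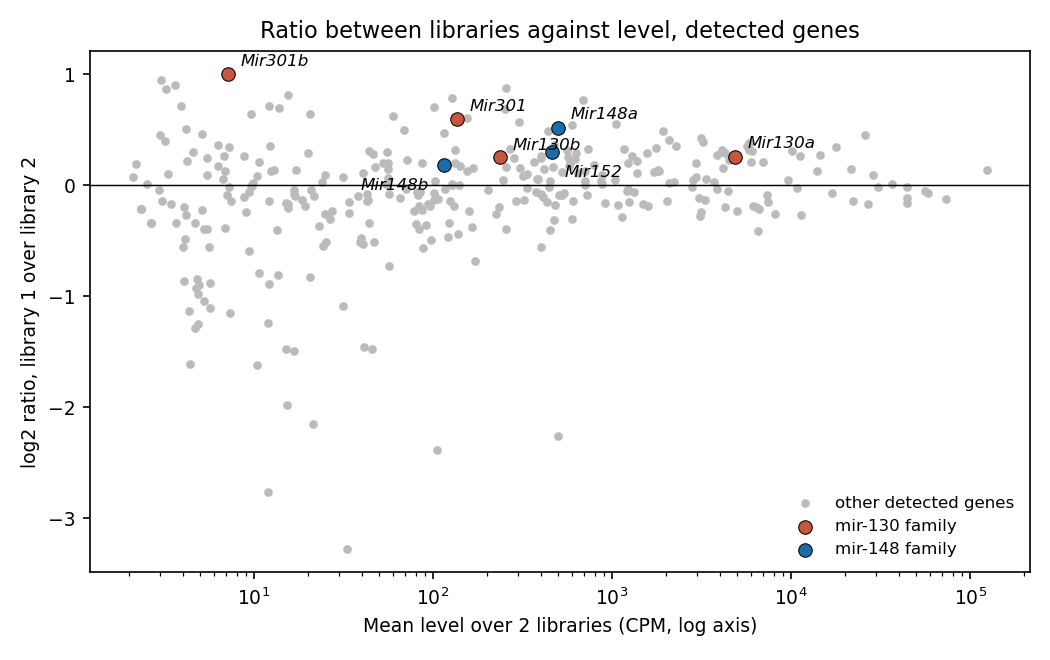
Log2 ratio of library 1 over library 2 against mean level in CPM on a log axis, for the 335 detected genes. The 7 genes of the families lie above 0, from Mir148b at 0.18 to Mir301b at 1.00, while the other genes (grey) lie on both sides.

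By family totals, mir-148 stood at a log2 ratio of 0.39 (0.33 to 0.44) and mir-130 at 0.27 (0.24 to 0.29), with 95% intervals of counting error.

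Markers of other cell types also differed between the libraries. Endothelial Mir126a, in the 1-gene list of that cell type, was higher in library 1, at 29518 and 21931 CPM. The 4 leukocyte markers summed to 657 (library 1) and 408 CPM (library 2), all 4 were detected, and 3 were called higher in library 1, among them Mir223 with a log2 ratio of 0.87 (0.75 to 0.99). Of the 4 connective tissue markers 3 were detected, with sums of 5361 and 4188 CPM, and 2 were called higher in library 1. Mir199a-1 had 0 counts in library 1 and 1 in library 2. Its mature sequence is shared with other copies, so the low count does not show absence and the connective tissue sums may be too low. These lists moved in the same direction as the 7 genes, and their part in the differences was not tested.

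Other marker lists moved in the opposite direction or were mixed. The liver list, of which both genes were detected, summed to 184 (library 1) and 833 CPM (library 2), almost all of it Mir122 with 942 and 3573 counts. Mir122 was called lower in library 1, and Mir192, with 83 counts in library 1 and 40 in library 2, was called higher. The neural list summed to 33.6 and 181 CPM, with 1 of 7 genes detected, Mir137, and with Mir9-2, Mir124a-2 and Mir124a-3 at 0 counts in both libraries. The Mir9 and Mir124a copies share mature sequences, so their low counts do not show absence. The erythroid list, with both genes detected, summed to 96.8 and 119 CPM, and 1 was called lower in library 1. The smooth muscle list, with both genes detected, summed to 25509 and 29100.1 CPM, with 1 called in each direction. The 9 skeletal muscle markers summed to 130998 and 120702 CPM, nearly all of it Mir206. Their total was thus higher in library 1, and 8 were detected. Among these, 3 were called higher in library 1 and 1 lower.

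**Figure D4:**
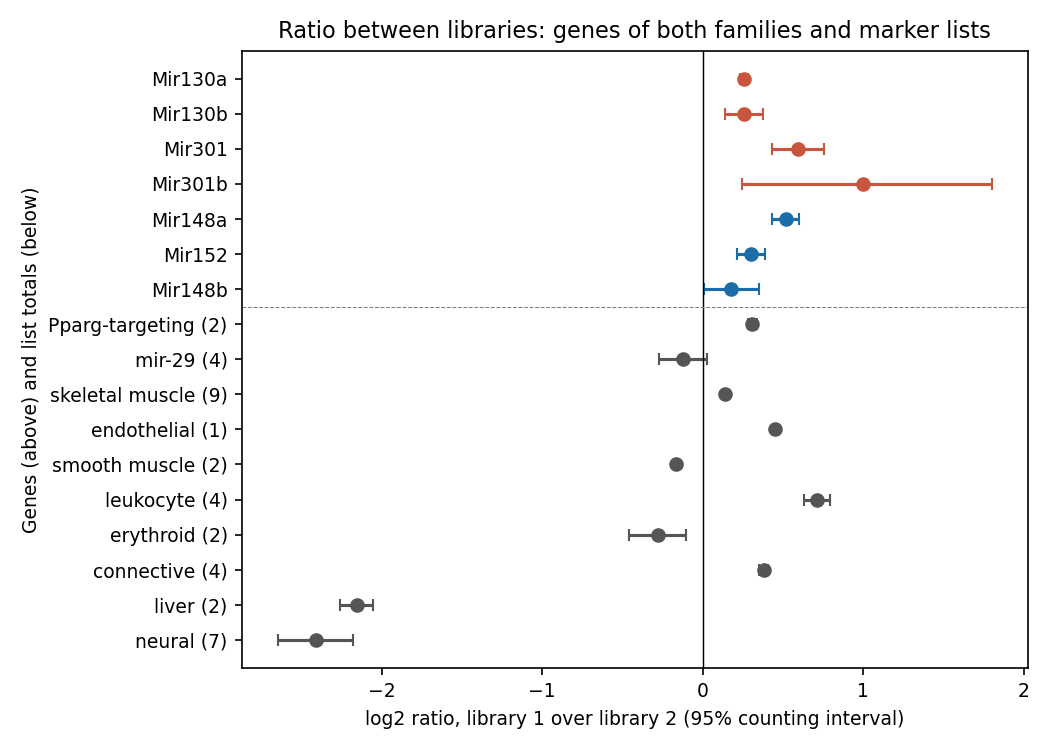
Log2 ratio of library 1 over library 2 for the 7 genes (above the dashed line) and for summed counts of each gene list, with the number of listed genes in brackets (below it). Points are ratios and bars are 95% counting intervals. The 7 genes lie to the right of 0, as do the totals of the leukocyte, connective tissue, endothelial, skeletal muscle and Pparg-targeting lists. The liver and neural lists lie far to the left. The erythroid and smooth muscle totals lie less far to the left, and the interval of mir-29 includes 0.

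Other miRNA genes carry the same or a related seed. RefSeq lists the seed AGUGCAA of the mir-130 family in Mir130c, Mir721, Mir6341 and Mir6389 as well, and all 4 had 0 counts in both libraries. Taking 3 counts as the limit for counting error only, a count of 0 allows 0.539 CPM of assigned reads for library 1 and 0.692 CPM for library 2. Multimapping reads are not covered by that limit, so a gene at 0 may still have been expressed. Among counted genes with a RefSeq mature entry, no further one had the seed CAGUGCA of the mir-148 family.

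A further 6 genes share a run of 6 bases with these seeds in bases 2 to 8 of an arm. Of these, 1 was detected, Mir350, whose 5p arm has the seed AAGUGCA. It stood at 98.4 CPM in library 1 and 104.7 CPM in library 2 and was not called (log2 ratio -0.07, interval -0.25 to 0.12). Gene counts pool both arms, so these are not levels of the arm with the related seed. The proliferation-associated genes Mir19a, Mir19b-1 and Mir19b-2, whose seed GUGCAAA is shifted by 1 base from that of Mir130a, had 15, 5 and 1 counts in library 1 and 6, 4 and 2 in library 2. Mir19b-1 and Mir19b-2 give the same mature 3p arm, so their counts are uncertain. Mir1960 had 4 counts in library 1 and 5 in library 2, and Mir291b had 0 in both.

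Genes known for repressing Pparg, or DNA methyltransferase genes other than Dnmt1, were set beside the families. Mir27a and Mir27b, which like the mir-130 family are known to repress Pparg, summed to 5175 (library 1) and 4243 CPM (library 2), and 2 of 2 were called higher in library 1. The log2 ratio was 0.25 (0.18 to 0.33) for Mir27a and 0.32 (0.29 to 0.34) for Mir27b. Because the mature sequences of Mir27a and Mir27b are nearly identical, their levels are uncertain. Mir29a, Mir29b-1, Mir29b-2 and Mir29c, known to repress the de novo DNA methyltransferase genes, summed to 148 and 163 CPM, against 1215 and 943 CPM for mir-148. Mir29b-1 and Mir29b-2 give the same mature 3p arm, so their counts, and with them the mir-29 sum, are uncertain and may be too low. Of the mir-29 genes 3 were detected, and 0 of 3 were called by the exact binomial test after adjustment, nor did any have an unadjusted p under 0.05.

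By Euclidean distance of log2(CPM + 0.5) over the 2 libraries, Mir425 was the detected gene closest in level to both Mir152 (distance 0.05) and Mir148a (0.15), at 527 CPM in library 1 and 417 CPM in library 2. Mir376a was closest to Mir130a (0.17), at 4793 and 4163 CPM. Mirlet7c-2 was closest to Mir130b (0.17), Mir24-2 to Mir301 (0.20), Mir5099 to Mir148b (0.15) and Gm49347 to Mir301b (0.44). Mirlet7c-2 and Mir24-2 share their mature sequences with other copies, so their levels are uncertain.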

How the data were processed

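Small RNA of the gastrocnemius was sequenced in 2 libraries of 1 group. The authors deposited raw counts per gene for each library, whole numbers with no normalization, made on mm10 with GENCODE M21, per the labels and deposited notes. The sources used here name no aligner or counter. Of the 3 deposited count columns, the own-strand column was used. The 4 rows that name no gene were left out of library sizes. In library 1 they held 36.9% (multimapping), 8.03% (unmapped) and 1.70% (outside genes) of reads, and in library 2 the shares were 37.6%, 9.26% and 2.09%. Multimapping reads thus entered no gene's count.

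CPM used totals of all gene rows. TMM factors over detected genes came from edgeR 4.0.16 in R 4.3.3, and size factors from DESeq2 1.42.0 served as an alternative. Tests and figures used Python 3.11.15, numpy 2.4.6, scipy 1.17.1 and matplotlib 3.10.9. An edgeR quasi-likelihood test was not possible, since 1 library on each side leaves no residual degrees of freedom, so an exact two-sided binomial test with Benjamini-Hochberg adjustment over all detected genes was used. The 95% intervals cover counting error alone and treat each read as independent. Reads can repeat a molecule, so the intervals may be too narrow. Tested on simulated counts of 335 genes with counting error only, the test called 91.0% of genes changed 2-fold, 80.0% changed 1.5-fold and 5.93% of unchanged genes.

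Genes named beyond the 7 followed a rule: related seeds, counted genes within 10 kb, the nearest detected gene in level, and lists of shared or related targets and cell type markers. The genes and lists were chosen with earlier results of these data known. Alternatives were counts with strand ignored, other scaling, detection set to 10 CPM, or to 1 count in any library, pseudocounts of 0.1 and 5 in place of 0.5 CPM, and each library alone. TMM over all gene rows was added after seeing the data. Hairpin coordinates are from GENCODE M21, and mature sequences from RefSeq GRCm38.p6.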

Additional observations from a re-analysis of the deposited data

Results flagged for a closer look

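Reads that matched several places, which entered no gene's count, made up 36.9% of library 1 and 37.6% of library 2. They are given because they lie outside the counts used for levels, at 3842752 reads in library 1 and 3187607 in library 2. How many of those reads came from the 7 genes was not tested. Between the 7 hairpins and any other counted gene, the longest stretch shared without a differing base was 17 bases.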

How the results depend on the processing

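All 7 genes had a log2 ratio of library 1 over library 2 above 0 under DESeq2 size factors, library totals, TMM over all gene rows (chosen after seeing the data) and strand ignored. Of 133 alternative values, 121 matched by the rules used, 3 passed the threshold newly, 9 moved and 0 reversed. Levels and within-family ratios of each library alone match by construction, since with 2 libraries each value lies within the SD of their mean. Those matches are no check of robustness. Nor are within-family ratios with strand ignored, since counts of the 7 genes then differed by at most 1 read. Genes detected in both libraries also stay detected in each library alone and at 1 count. The rule for pseudocounts was loose. For Mir301b, a log2 difference of 0.56 with a pseudocount of 5 CPM matched 0.91 with 0.5 CPM. Numbers of called genes also passed as matching after moderate changes, such as 117 detected genes called higher in place of 90. The log2 ratio of mir-130 totals was 0.30 with DESeq2 size factors, 0.34 with TMM over all gene rows and 0.29 with strand ignored, and that of mir-148 was 0.46 with TMM over all gene rows. Strand ignored raised the level of mir-130 to 5983 CPM, with gene totals of 4868965 in library 1 and 3823162 in library 2, because reads over genes on both strands then count for neither. Mir148b passed the threshold with DESeq2 size factors (adjusted p 0.0302), TMM over all gene rows (0.00882) and strand ignored (0.0379), by the exact binomial test, and did not with library totals (0.118) or with detection at 1 count (0.137). The cause was not tested. Detection at 10 CPM removed Mir301b, which left 6 genes detected and 5 called. No paired analysis was possible because the series has 1 group of 2 libraries. Each library alone gave the values printed for it, with no test. Depth limits Mir301b most, at 53 and 21 counts.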
